A study of Mus musculus with 6 samples.

Results

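The genes described here build and maintain the neuromuscular junction, the synapse at which a motor nerve excites a skeletal muscle fibre. They were taken as the probe sets whose single gene symbol in the platform's annotation is one of Musk, Chrna1, Chrnb1, Chrnd, Chrne, Chrng, Dok7, Rapsn, Lrp4 and Etv5. All 10 genes were found, with 11 probe sets of the 35557 in the table and 10 of the 19938 genes tested; Etv5 alone had a second probe set. Expression was measured on Affymetrix MoGene arrays in skeletal muscle of transgenic mice (TG, 3 arrays) and wild-type mice (WT, 3 arrays), in a series titled for the cytokine-signalling inhibitor SOCS-3 in muscle. Each array came from a separately named animal, and arrays are numbered 1 to 3 within each group. The sources used here do not state what the transgene encodes, its promoter, the muscle taken, or the strain and age of the mice.

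Socs3, the gene in the series title, had log2 values of 7.12, 7.25 and 7.07 on TG arrays 1 to 3, against 7.43, 7.41 and 7.37 on WT arrays 1 to 3. Every TG array thus lay below every WT array, with a difference of -0.26 (limma, adjusted p = 0.660), and a second probe set of the gene differed by -0.22, also with no overlap. Neither probe set read a higher Socs3 level on the arrays labelled TG. The sources used here do not say whether the transgene carries the stretches read by these probe sets, and the directions below rest on the labels alone.

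The labelled tissue was checked against its markers. The 16 muscle fibre markers measured, among them the skeletal actin gene Acta1 and the creatine kinase gene Ckm, had mean log2 levels of 13.82 to 13.84 on TG arrays and 13.85 to 13.88 on WT arrays, a narrow gap with no overlap. Their median difference, TG minus WT, was -0.011. Farthest from 0 was the myosin gene Myh2, at -0.30, with its highest value, 12.52, on WT array 3. Array medians over all probe sets lay between 5.98 and 6.04. Raw probe intensities were not used here, so signal over background is unknown for each gene, and 3 arrays a group limit the precision. Levels of different probe sets are not comparable, and each difference therefore sets a gene only against itself. Splits at the median level, mean or summed list levels and readings called low describe array signal, not amounts of transcript. In whole muscle, fewer synaptic nuclei and less RNA per nucleus cannot be told apart.

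At the junction, motor nerve terminals release agrin, which binds the receptor LRP4 on the fibre and so activates the kinase MuSK. The adaptor DOK7 acts from inside the fibre to activate MuSK, and rapsyn, the product of Rapsn, clusters acetylcholine receptors beneath the terminal. The receptor is a pentamer of 2 α subunits with β, δ and either γ, in fetal and denervated muscle, or ε, in innervated adult muscle. Nuclei beneath the synapse transcribe many of these genes more than other fibre nuclei do. ETS-family factors such as GABP act there through an element called the N-box, ETV5 is a further ETS factor needed for synaptic transcription in mouse muscle, and myogenic factors such as MyoD and myogenin act through E-boxes.

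Promoter sequences of 3 receptor subunit genes are shown because the values below set the adult ε gene against the fetal γ gene, with the shared α gene beside them. The sequences are from RefSeq, assembly GRCm38.p6, and each is the 200 bases from 230 to 31 before the annotated start, written 5′ to 3′ in the direction of the gene. Capitals mark the N-box CCGGAA and the E-box CANNTG, searched on both strands (the E-box reads the same on each).
Chrne promoter, chr11:70619225-70619424, minus strand: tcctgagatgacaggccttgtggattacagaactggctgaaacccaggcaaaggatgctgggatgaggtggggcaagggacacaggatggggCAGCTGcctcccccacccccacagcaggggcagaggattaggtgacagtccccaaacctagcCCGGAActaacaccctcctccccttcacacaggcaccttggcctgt
Chrng promoter, chr1:87205581-87205780, plus strand: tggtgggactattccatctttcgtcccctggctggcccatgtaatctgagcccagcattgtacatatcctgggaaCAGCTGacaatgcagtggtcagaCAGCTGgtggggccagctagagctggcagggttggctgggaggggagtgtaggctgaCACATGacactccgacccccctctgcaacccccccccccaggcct
Chrna1 promoter, chr2:73580369-73580568, minus strand: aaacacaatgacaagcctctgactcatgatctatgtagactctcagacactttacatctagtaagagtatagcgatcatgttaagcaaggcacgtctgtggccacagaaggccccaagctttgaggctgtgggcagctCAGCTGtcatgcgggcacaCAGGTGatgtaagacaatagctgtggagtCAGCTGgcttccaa
The Chrne window held 1 N-box, which begins 76 bases before the start used for the window, and 1 E-box. For Chrne that start lies inside the annotated extent of the gene, chr11:70614883-70619213, so the N-box is nearer to the end of that extent. The Chrng window held no N-box and 3 E-boxes, and the Chrna1 window likewise held 3 E-boxes and no N-box. Over all 32851 promoter windows of this length in the table, 8.92% held an N-box and 58.8% an E-box. Of the 10 genes, 7 had a window in that table (9 windows), and the one N-box among them was that of Chrne. The Musk window, the Dok7 windows and an Etv5 window overlap the annotated gene itself. For Musk and Dok7 the bases before the gene were thus searched in small part at most. No stretch of N-box and E-box letters overlapped in the 3 windows shown. A match here is a run of letters, not a bound site.

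The comparison asked whether transcript levels of the junction differed between TG and WT muscle. The 10 genes had small differences, from -0.26 for Chrng to 0.11 for Dok7 on the log2 scale (TG minus WT), and 7 of them lay below 0, as did 56.2% of all genes tested. None of the 10 passed an adjusted p of 0.05 (limma, smallest adjusted p = 0.710), where 0.00502% of all genes tested passed. At an unadjusted p under 0.05 (limma) there were 3, namely Musk, Chrng and Etv5, all lower in TG. Of all genes, 6.75% reached that level in either direction and 4.79% with lower values in TG. In 4 genes, Musk, Chrng, Rapsn and Etv5, every TG array lay below every WT array, and in none did every TG array lie above. Groups did not overlap in 12.3% of all genes, and TG lay below WT in 7.76%. Of the 10 genes, 8 were above the median level of all genes. In that range 47.1% of genes had a difference below 0, and TG lay wholly below WT in 5.9%. Below that level, the range of Chrnd and Chrng, the shares were 65.4% and 9.63%. The median difference of the 10 genes was -0.083, against -0.016 over all genes tested. Every one of the 10 intervals (95%) lay within a 1.5-fold change in either direction, as did those of 94.4% of all genes.

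These counts moved with the arrays used. The 3 genes at an unadjusted p under 0.05 became 1 when either TG array 1 or TG array 3 was left out, 2 when TG array 2 was, and 0 when WT array 2 or WT array 3 was. Leaving out WT array 1 also gave 3. With the second Etv5 probe set in place of the first, or with robust moderation, there were 2. There was 1, Etv5, with a common array median, a common mean of the muscle fibre markers, array weights or all probe sets tested. With the mean level of liver transcripts as a covariate there was also 1, but it was Dok7, higher in TG. Quantile normalization gave 4, with Rapsn as the added gene. The share of all genes at that level is not given here for these runs. A change in the 10 genes thus cannot be told from a change in all genes. With arrays set to a common mean of the muscle fibre markers, 2 genes in place of 4, Rapsn and Etv5, had TG arrays wholly below WT arrays, and with a common array median 3 had, Chrng, Rapsn and Etv5. With the values as deposited but the second Etv5 probe set in place of the first, 3 had, Musk, Chrng and Rapsn. Over all genes, TG lay wholly below WT in 5.38% and wholly above in 7.17% with the muscle-marker mean, and in 5.99% and 6.33% with the common median, so the larger share was then above WT, whereas with the values as deposited it was below (7.76%, against 4.52% above).

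**Figure D1:**
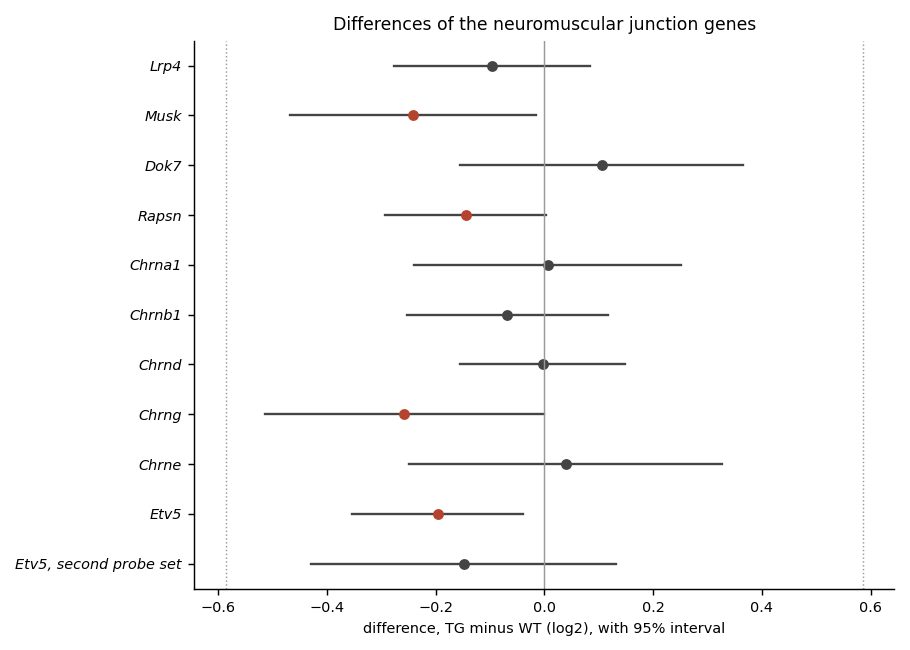
Difference of each gene, TG minus WT, on the log2 scale (horizontal axis) with its 95% interval; red points mark genes in which every TG array lay below every WT array, and dotted lines mark a 1.5-fold change. All intervals lie inside the dotted lines, and 3 of the red points, Musk, Chrng and Etv5, have intervals wholly below 0.

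The agrin receptor genes came first in the signalling order. Lrp4, which encodes the agrin-binding coreceptor, had log2 values of 7.17, 7.04 and 7.19 on TG arrays 1 to 3, against 7.17, 7.20 and 7.33 on WT arrays 1 to 3. The groups overlapped, with the lowest value on TG array 2 and the highest on WT array 3. The difference was -0.10 (SE 0.08, 95% interval -0.28 to 0.08; limma, adjusted p = 0.825), and it was -0.049 without TG array 2 and -0.050 without WT array 3. Lrp4 maps to chr2:91457456-91513901 of GRCm38.p6, on the same chromosome as Rapsn.

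Musk, the kinase through which agrin acts, had values of 7.69, 7.68 and 7.50 on the TG arrays, against 7.70, 7.98 and 7.92 on the WT arrays. TG array 3 was the lowest. The groups did not overlap, but WT array 1 was only 0.0066 above TG array 1, while WT arrays 2 and 3 stood well above all others. The means were 7.62 ± 0.11 in TG, against 7.86 ± 0.15 in WT (SD, n = 3 per group), a difference of -0.24 (SE 0.10, 95% interval -0.47 to -0.01; limma, adjusted p = 0.738), or 1.18-fold lower in TG. With any single array left out the difference stayed negative, from -0.33 without WT array 1 to -0.18 without TG array 3.

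Dok7, the cytoplasmic activator of MuSK, was the gene with the highest difference of the 10. Its values were 8.52, 8.79 and 8.45 on the TG arrays, against 8.33, 8.55 and 8.57 on the WT arrays. The groups overlapped, and TG array 2 stood above all other arrays. The difference was 0.11 (SE 0.11, 95% interval -0.16 to 0.37; limma, adjusted p = 0.871), and it was 0.0024 without TG array 2, 0.029 without WT array 1 and 0.17 without TG array 3. Thus Lrp4 and Musk had differences below 0 and Dok7 had a difference above 0, none of them past the threshold.

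Rapsn, which encodes the scaffold that holds receptors in clusters, had the tightest values of the group. They were 8.81, 8.79 and 8.79 on the TG arrays, against 8.89, 9.00 and 8.93 on the WT arrays. The 3 TG arrays lay within 0.025 of each other, and the nearest WT array was 0.080 above them. The means were 8.80 ± 0.01 in TG, against 8.94 ± 0.05 in WT (SD, n = 3 per group), a difference of -0.15 (SE 0.06, 95% interval -0.29 to 0.0037; limma, adjusted p = 0.739). Its spread within groups (residual SD 0.04) was at percentile 5.51 of all genes tested. The difference lay between -0.17 and -0.12 over every alternative run, array omissions included.

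**Figure D2:**
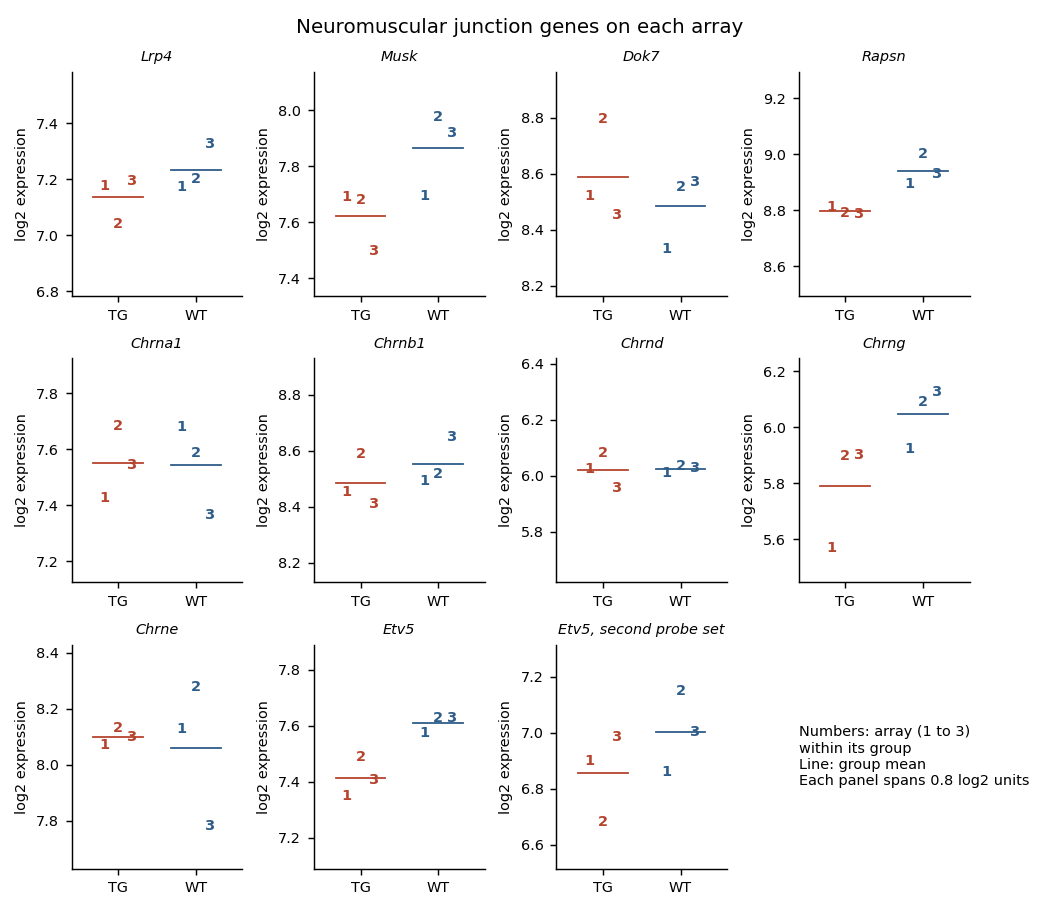
Log2 expression (vertical axis) of each gene on each array, TG left and WT right in every panel; numerals are the arrays 1 to 3 of a group, lines are group means, and each panel spans 0.8 log2 units. Musk, Rapsn, Chrng and Etv5 show all TG numerals below all WT numerals, Musk by a gap of 0.0066, and the other genes and the second Etv5 probe set overlap.

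The receptor subunits shared by fetal and adult receptors differed little. Chrna1, the acetylcholine-binding α subunit gene, had 7.43, 7.68 and 7.54 on the TG arrays, against 7.68, 7.59 and 7.37 on the WT arrays. The groups covered nearly the same range, and the difference was 0.0064 (SE 0.11, 95% interval -0.24 to 0.25; limma, adjusted p = 0.994). Its sign turned when TG array 2 was left out, to -0.060, and when WT array 3 was, to -0.083.

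Chrnb1, the β subunit gene, had 8.45, 8.59 and 8.41 on the TG arrays, against 8.49, 8.52 and 8.65 on the WT arrays. The groups overlapped, with a difference of -0.07 (SE 0.08, 95% interval -0.25 to 0.12; limma, adjusted p = 0.882). It was -0.020 without WT array 3, -0.032 without TG array 3, -0.018 with the liver transcripts as a covariate and -0.12 without TG array 2. Chrnd, the δ subunit gene, had 6.02, 6.08 and 5.96 on the TG arrays, against 6.01, 6.03 and 6.03 on the WT arrays. The WT arrays of Chrnd lay within 0.025 of each other and inside the range of the TG arrays. The difference was -0.0033 (SE 0.06, 95% interval -0.15 to 0.15; limma, adjusted p = 0.995), and its sign turned with other scalings, which gave 0.016 with a common array median and 0.022 with a common mean of the muscle markers.

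Chrng, the fetal γ subunit gene, had the lowest difference of the 10. The gene lies at chr1:87205811-87211835 of GRCm38.p6, next to Chrnd at chr1:87190597-87200070. Its values were 5.57, 5.90 and 5.90 on the TG arrays, against 5.92, 6.09 and 6.12 on the WT arrays. The groups did not overlap, by a gap of 0.022 between TG array 3 and WT array 1, and TG array 1 stood apart below the rest. The means were 5.79 ± 0.19 in TG, against 6.05 ± 0.11 in WT (SD, n = 3 per group), a difference of -0.26 (SE 0.11, 95% interval -0.51 to -0.0011; limma, adjusted p = 0.738), or 1.20-fold lower in TG. Without TG array 1 it was -0.15. Chrng was among the 9969 genes below the median level, whose median difference was -0.051, while it was 0.0061 for the 9969 genes above that level.

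Chrne, the adult ε subunit gene whose promoter carries the N-box shown above, had 8.07, 8.13 and 8.10 on the TG arrays, against 8.13, 8.28 and 7.78 on the WT arrays. The TG arrays lay within 0.060 of each other and inside the WT range, which was 0.50 wide and set by WT arrays 2 and 3. The difference was 0.04 (SE 0.12, 95% interval -0.25 to 0.33; limma, adjusted p = 0.968). Its sign turned without WT array 3, to -0.10. Chrne therefore had a difference near 0 with the widest WT spread of the 10 genes, while Chrnd had one near 0 with a narrow spread.

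Whether γ and ε differed unequally was tested on the difference Chrng minus Chrne within each array, where a shift of a whole array cancels. This quantity was -2.50, -2.23 and -2.20 on the TG arrays, against -2.20, -2.19 and -1.66 on the WT arrays. TG array 3 lay just above WT array 1, so the groups overlapped. The TG mean was 0.30 below the WT mean (difference -0.30; exact two-sided permutation test, p = 0.2, with 0.1 the smallest p that 20 splits allow). With quantile normalization, which is not a plain shift, the difference was -0.27 and the groups did not overlap (exact permutation test, p = 0.1, the smallest possible). Without WT array 3, which had the lowest Chrne value, the difference was -0.12. The within-array quantity measures unequal change and does not rank the 2 subunits by level.

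**Figure D3:**
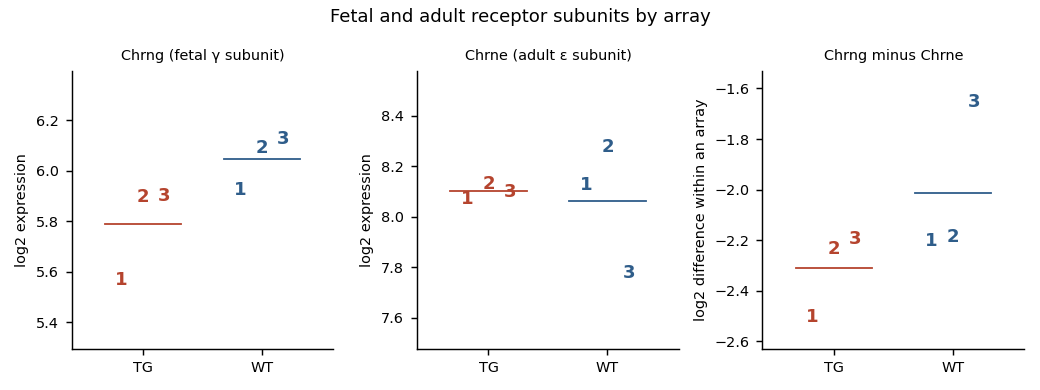
Log2 expression of Chrng (left) and Chrne (middle) and their difference within each array (right), with TG left and WT right in every panel; numerals are arrays and lines are group means. The Chrng groups do not overlap, the Chrne groups do, and WT array 3 sets the highest Chrng minus Chrne value, -1.66.

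Etv5 encodes an ETS-family transcription factor that acts on synaptic genes in muscle. Its first probe set, the one with the higher mean, gave 7.35, 7.49 and 7.41 on the TG arrays, against 7.58, 7.63 and 7.63 on the WT arrays. The WT arrays were within 0.054 of each other, and the groups were 0.088 apart. The means were 7.41 ± 0.07 in TG, against 7.61 ± 0.03 in WT (SD, n = 3 per group), a difference of -0.20 (SE 0.07, 95% interval -0.35 to -0.04; limma, adjusted p = 0.710). This was the smallest p of the 10 genes, at rank 570 of the 19938 genes by p.

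The second Etv5 probe set gave 6.90, 6.68 and 6.98 on the TG arrays, against 6.86, 7.15 and 7.00 on the WT arrays. These groups overlapped, with TG array 2 lowest and WT array 2 highest, and the difference was -0.15 (SE 0.11, 95% interval -0.43 to 0.13; limma over all probe sets, adjusted p = 0.871). Both probe sets are annotated to Etv5, a gene on chromosome 16, but only the second has an identifier among those of chromosome 16 genes. All 10 annotated probe sets with identifiers nearest to the first, such as that of Ipmk, belong to genes on chromosome 10. For the probe sets of the other 9 genes, 9 or 10 of the 10 nearest lay on the gene's own chromosome. Whether the first probe set reads Etv5 transcripts or another sequence was not tested, so its values are those of a probe set annotated to Etv5.

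The genes with profiles most like the first Etv5 probe set over the 6 arrays were Asl, Tmub1 and Hephl1. They were chosen among the 9901 genes that varied at least as much, by the smallest root-mean-square difference after each gene was centred on its own mean. That difference was 0.024 log2 units for Asl, 0.033 for Tmub1 and 0.035 for Hephl1. Asl encodes argininosuccinate lyase, an enzyme of the urea cycle, and Hephl1 a relative of the copper oxidase hephaestin. Over 6 arrays this likeness is a description of these samples only.

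Arrays differed from each other in the level of the whole set. The mean log2 level over the 10 genes was 7.51, 7.62 and 7.52 on TG arrays 1 to 3, against 7.59, 7.69 and 7.63 on WT arrays 1 to 3. TG array 2 thus reached the WT range, and TG array 3 had the lowest value of 4 of the 10 genes. WT array 2 had the highest value of 4 genes, and TG array 2 and WT array 3 of 3 each. Liver transcripts, measured by 14 genes, also varied between arrays. Their mean level was 6.51, 7.74 and 5.70 on TG arrays 1 to 3, against 6.82, 7.30 and 7.36 on WT arrays 1 to 3, with both the highest and the lowest level on a TG array. All 14 had differences below 0, and their summed level spanned 9.76 to 12.09 in TG and 10.94 to 11.70 in WT on the log2 scale. With that mean level as a covariate, Musk was at -0.19, Chrng at -0.23, Rapsn at -0.14, Etv5 at -0.17 and Dok7 at 0.20, and Dok7 alone of the 10 genes had an unadjusted p under 0.05 (limma, adjusted p = 0.706).

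Other genes of the junction were read from lists, of which none had a gene past the threshold over all genes. Among 17 measured partners of agrin and MuSK signalling, 12 lay below 0 and the median was -0.029. The kinase gene Gsk3b, at 9.44 ± 0.03 in TG, against 9.53 ± 0.04 in WT (SD, n = 3 per group), differed by -0.10 with no overlap (limma, adjusted p = 0.802). The adaptor gene Crk, whose product binds DOK7, was at -0.11, and Dnaja3, which encodes a MuSK-binding cochaperone, was at 0.09. Agrn itself, named for its role after its value was seen, was at -0.09 (SE 0.08), although the nerve's own agrin is made in cell bodies outside the muscle.

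In the neuregulin, ErbB and ETS list, 7 of 12 genes lay below 0 (median -0.023). Etv1 and Etv4, which form a subfamily of ETS factors with Etv5, had the 2 smallest p of this list. Etv4 had 6.39, 6.36 and 6.23 on the TG arrays, against 6.48, 6.42 and 6.61 on the WT arrays. The groups did not overlap, and the difference was -0.18 (SE 0.08; limma, adjusted p = 0.739). Etv1 lay between 5.89 and 6.24 on the TG arrays, against 6.20 to 6.34 on the WT arrays, with TG array 3 inside the WT range, and differed by -0.22 (SE 0.10; limma, adjusted p = 0.741). The neuregulin receptor gene Erbb4 was at 0.17, with every TG array above every WT array, and the GABP α subunit gene Gabpa, named for its role after its value was seen, was at -0.0076 (SE 0.07).

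Synaptic basal lamina and acetylcholinesterase genes divided evenly, with 9 of 18 below 0 and a median of 0.0064. The laminin γ1 gene Lamc1 was at 0.14, the nidogen gene Nid2 at 0.14 and the collagen gene Col4a6 at -0.09. Ache, the acetylcholinesterase gene, and Colq, which encodes its collagen tail, were at -0.07 and -0.04, both named for their roles after their values were seen. In the postsynaptic scaffold and channel list 7 of 14 lay below 0 (median 0.0030). The dystrobrevin gene Dtnb was at -0.24 (SE 0.09; limma, adjusted p = 0.738) and the inward rectifier gene Kcnj2 at -0.13, both with no overlap. Ankrd1, counted in this list, encodes a stretch-responsive titin-binding protein and not a synaptic scaffold or channel. It was at 0.87 with a wide spread, 10.29 ± 0.94 in TG, against 9.42 ± 0.71 in WT (SD, n = 3 per group, limma, adjusted p = 0.791).

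Receptor subunits of the neuronal nicotinic and muscarinic families, which are not part of the muscle receptor, lay below 0 in 14 of 16 genes, with a median of -0.12. Chrm1 was at -0.21 with no overlap (SE 0.08; limma, adjusted p = 0.738), Chrna10 at -0.33 (SE 0.14) and Chrm3 at -0.21. Of these 16 genes, 15 were below the median level of all genes, a range in which 65.4% of genes had a difference below 0 and the median was -0.051. The mean level of this list was 5.11 to 5.23 on TG arrays and 5.27 to 5.29 on WT arrays, with no overlap.

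Genes known to respond to denervation showed no common direction, with 10 of 16 above 0 and a median of 0.025. The myogenic factor gene Myod1, whose product binds E-boxes, had 9.06, 8.72 and 8.47 on the TG arrays, against 9.21, 9.02 and 9.46 on the WT arrays. TG array 1 was just above WT array 2, and the difference was -0.48 (SE 0.17; limma, adjusted p = 0.710). Mitf, which encodes a basic helix-loop-helix factor, was at 0.18, with no overlap, and the stress-response gene Gadd45a was at 0.27. Myog, the gene of the E-box factor myogenin, was at -0.02 (SE 0.15) and the ubiquitin ligase gene Trim63 at 0.01, both named for their roles after their values were seen.

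Markers of nerve were read because a piece of whole muscle also holds motor axons and Schwann cells. Motor axon and presynaptic markers had 9 of 14 values below 0 (median -0.037), with mean levels of 5.44 to 5.53 in TG and 5.50 to 5.53 in WT. The synaptic vesicle fusion gene Snap25 was at -0.24 with no overlap (limma, adjusted p = 0.738), the neurofilament gene Nefm at 0.18 and the syntaxin gene Stx1a at -0.14. The choline acetyltransferase gene Chat, which defines cholinergic neurons, lay between 4.56 and 4.89 over the 6 arrays. Snap25 lay between 4.50 and 5.04 and Nefm between 3.62 and 4.04. Chat, Snap25 and Nefm were thus low readings, below the array medians over all probe sets, 5.98 to 6.04. Other markers of the list were not, such as Stx1a, at 6.08 to 6.40, and Vamp1, at 8.15 to 8.25. As said for agrin, the cell bodies of the nerve lie outside the muscle. Schwann cell markers had 8 of 9 values below 0 (median -0.064), with mean levels of 6.33 to 6.40 in TG and 6.40 to 6.46 in WT, which did not overlap (highest TG array 6.3956, lowest WT array 6.4039). Among them Ngfr, the low-affinity neurotrophin receptor gene, was at -0.17 with no overlap (limma, adjusted p = 0.738), Mbp, a myelin protein gene, at -0.13 and S100b at -0.11. The part of nerve markers in the values of the 10 genes was not tested.

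**Figure D4:**
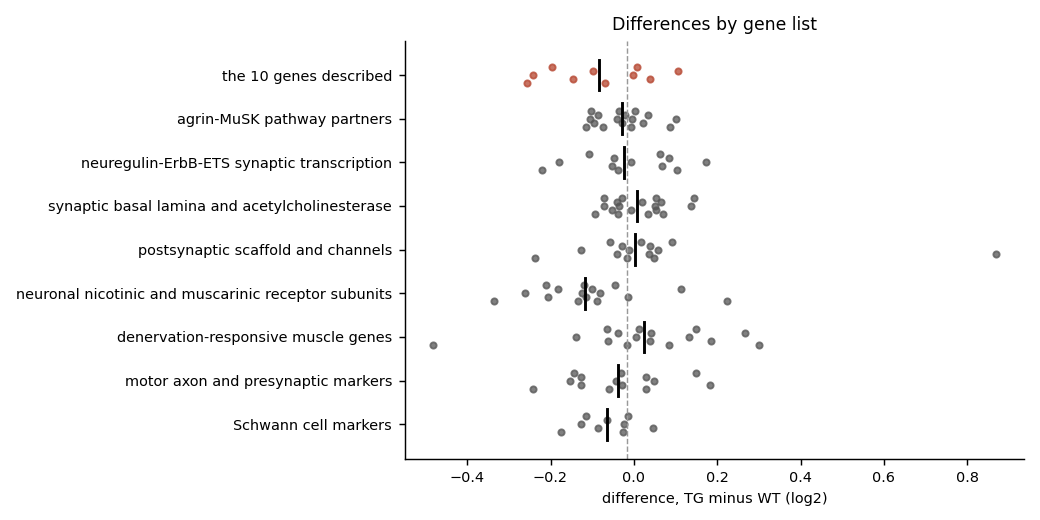
Difference of every measured gene, TG minus WT on the log2 scale (horizontal axis), for the 10 genes described (red) and 8 further lists (grey); black bars are list medians and the dashed line is the median of all genes tested, -0.016. The red bar stands at -0.083, the neuronal nicotinic and muscarinic list at -0.12, and Ankrd1 at 0.87 is the point farthest to the right.

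Fibre type and other cells were checked in the same way. Slow fibre markers had 7 of 8 values below 0 (median -0.10), with the slow troponin genes Tnnt1 at -0.21 (no overlap) and Tnni1 at -0.15 and the slow myosin light chain gene Myl2 at -0.47. Among fast and general fibre markers the myosin gene Myh2 was at -0.30, Myh1 at 0.06 and Tnni2 at -0.05, each with no overlap. Of 9 satellite cell markers 5 lay below 0 (median -0.0078), with Cdh15 at -0.10, Pax7 at -0.09 and Itga7 at -0.06. Macrophage markers lay above 0 in 12 of 15 genes (median 0.082) and adipocyte markers in 8 of 9 (median 0.16), with mean levels of 6.71 to 6.98 in TG and 6.55 to 6.89 in WT for macrophages, and of 6.92 to 7.12 in TG and 6.80 to 6.84 in WT for adipocytes, the adipocyte levels with no overlap. Fibroblast and matrix markers lay above 0 in 7 of 9 (median 0.099), endothelial markers below 0 in 7 of 10 (median -0.047), and bone and osteoclast transcripts above 0 in 8 of 9 (median 0.25). Mean endothelial levels were also lower in TG with no overlap, by a narrow gap between the highest TG array, 8.7159, and the lowest WT array, 8.7193. None of these genes passed the threshold (limma, smallest adjusted p = 0.299, for Adipoq), and their part in the differences of the 10 genes was not tested.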

How the data were processed

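Total RNA of frozen mouse skeletal muscle was purified with Trizol and RNeasy columns and labelled with biotin, per the labels' protocols. The authors deposited log2 expression values in 1 table with 6 columns, 1 per array; that they are log2 was judged from their range, 1.41 to 15.1. How they were summarized and normalized was not given in the sources used here. Values were used as deposited. Arrays were grouped by their type label, and replicate numbers follow deposit order. No array was identical to another.

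Symbols came from the platform's annotation: 21789 probe sets had 1 symbol, 1621 several and 12147 none, and only the first were named. Each gene was its probe set with the highest mean. TG and WT were compared two-sided with limma (version 3.58.1, lmFit followed by eBayes, run in R 4.3.3), with Benjamini-Hochberg adjustment over all genes at a threshold of 0.05. A check on simulated data with known changes ran first. Gene positions and promoters are from RefSeq, assembly GRCm38.p6; figures used matplotlib 3.10.9.

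The 10 genes and the 17 lists (230 genes, 215 measured) were chosen with earlier results of these data known, so none is independent support. Named genes are the 10, and the 3 of smallest p per list unless said otherwise. Alternatives were array weights, robust moderation, an intensity trend, testing every probe set or the mean of probe sets, genes above the median level, quantile normalization, a common median, a common muscle-marker mean, a looser threshold and each array left out. The liver covariate and the second Etv5 probe set were added after seeing the data.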

Additional observations from a re-analysis of the deposited data

How the results depend on the processing

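None of the 10 genes passed the threshold under any alternative run, with limma adjusted p from 0.549 to 1 over 159 values of single genes, and 7 of the 10 genes kept their sign throughout. The signs that turned belong to differences near 0. Chrnd was at 0.0016 with array weights, 0.016 with quantile normalization and with a common median, 0.022 with a common muscle-marker mean and 0.026 with the liver covariate, and spanned -0.033 to 0.028 with arrays left out in turn. Chrna1 spanned -0.083 to 0.074 and Chrne -0.10 to 0.15 with arrays left out. Chrng minus Chrne spanned -0.39 to -0.12. Chrnd and Chrng were not tested among genes above the median level, which they do not reach. Over all genes, 1 passed; there were 7 with an intensity trend, 2 among genes above the median level, 0 with robust moderation, every probe set, a common median, a common muscle-marker mean or the liver covariate, 0 without any single array, and 31 at an unadjusted p under 0.01 with a 1.5-fold change. The causes were not tested. No paired analysis was possible because the labels give no replicate numbers shared between TG and WT. With 3 arrays a group, the 95% intervals of the 10 differences reached down to -0.51, for Chrng, and up to 0.37, for Dok7, and without probe intensities the limit set by background is unknown.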
